A study of Mus musculus with 2 samples.

Results

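Splice junctions that were read at least 10 times in stimulated mouse CD4+ T cells and not listed at the same ends and strand in mock-treated cells numbered 1169. They were chosen from the deposited junction lists as introns, defined by chromosome, start, end and strand, with a score of 10 or more in the stimulated library and no entry in the mock library. The score is the number of reads that span the junction. The 1169 were 3.80% of the 30768 junctions with that score in the stimulated library, and the 2 libraries listed 124183 junctions in all. They carried 24278 of the 1341197 stimulated junction reads (1.81%). They included most of the junctions with 10 or more stimulated reads in some genes, such as Shmt1 and Hivep3, and single introns of genes that both libraries read, such as Rpl8, Actb and Uba1. Because the reads of both libraries chose them, their reads are given as a description, without a test. They are set beside 29599 junctions with 10 or more stimulated reads that were listed in both libraries, called shared junctions here.

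Both libraries were made from CD4+ T cells that had been enriched with BD IMag beads from 4 pooled spleens of male mice of the strain C57BL/6JJcl. The stimulated cells were kept for 4 h on plates coated with anti-CD3e at 2 ug/ml and anti-CD28 at 2 ug/ml. The mock cells were handled alike for the same time with no antibody. The ages of the mice are not given in the labels. Each group had 1 library, so nothing here was checked in a replicate and all differences are between these 2 libraries. The mean insert was 199 bp in the stimulated library and 212 bp in the mock library.

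The mock library held 1147232 junction reads on 97850 junctions and the stimulated library held 1341197 reads on 97395. The 5 markers of CD4+ T cells had 3476 mock and 3595 stimulated reads in sum, but they moved apart. Cd4 had 654 mock and 286 stimulated reads, Cd3e 701 and 475, Cd3g 682 and 425, Cd3d 220 and 237, and Trac 1219 and 2172. The 7 B cell markers had 204 and 165 reads, the 7 myeloid markers 39 and 41 (Lyz2 15 and 0, Cybb 5 and 19), the 2 CD8 markers 16 and 5, the 3 natural killer markers 0 and 3, the 4 dendritic markers 9 and 2, and the 3 erythroid markers 3 and 12. Cd8a, Ncr1, Siglech, Itgam and Hbb-bt had 0 reads in both. No marker gene of any of these cell types held a junction of the set.

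A spliced messenger RNA joins the end of 1 exon, the donor side of an intron, to the start of the next, the acceptor side, and a read that crosses the join shows that the intron was removed. T cells that meet antibodies to CD3 and CD28 enter the cell cycle over the following days. Before that they switch on transcription factors and cytokines, and they enlarge their machinery for making ribosomes, nucleotides and protein. A junction count alone does not tell a higher level of the gene from another transcript start, another join or another placement of the reads. In a bulk sample a difference in the number of cells of a type also cannot be told apart from a difference in RNA per cell.

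The joins below are shown because the results turn on them. Hivep3 and Il2 stand for genes with almost no mock reads, and Nr4a2 for one with 17 mock and 762 stimulated reads on its other junctions. Lcp2 and Uba1 stand for genes that were well read in both libraries. Tm9sf4, Ctps and Atxn2l stand for introns that share 1 end with a junction listed in both libraries. Each line gives the 15 bases of the transcript before the join and the 15 after it, 5′ to 3′ on the strand of the gene, with those after the join in capitals. In Lcp2 the exon before the join is shorter than that, so its line begins in the exon before. All flanks shown are coding. The letters are from the GENCODE M21 transcripts, and the positions are those of the intron in mm9.
Hivep3 (chr4:119805235-119806185, plus strand): tgcacctctgcatggCGGAAGACTGAGTCC
Il2 (chr3:37020140-37021911, minus strand): gttgtaaaactaaagGGCTCTGACAACACA
Nr4a2 (chr2:56962689-56963047, minus strand): ggatggttaaagaagTGGTTCGCACGGACA
Lcp2 (chr11:33981733-33982393, plus strand): atgatgaagatgatgTGCATCAGAGACCTT
Tm9sf4 (chr2:153004739-153008123, plus strand): ccagtagagatcaagGCTGTGAAGCTTACC
Ctps (chr4:120235484-120237873, minus strand): ggaagactgtccaggTTGTCCCTCACATCA
Atxn2l (chr7:133644973-133645466, minus strand): ggggatcccttcagaGGGACAGACCACCGG
Uba1 (chrX:20259131-20259234, plus strand): cttgattactttaagACAGAGCACAAATTG

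Fewer junctions were missing from the mock library the more often they were read. Of the junctions with 1 to 9 stimulated reads 37.8% were absent from the mock library. The share was 5.48% at 10 to 19 reads (809 of 14757), 2.79% at 20 to 49 (306 of 10979), 1.35% at 50 to 99 (45 of 3330) and 0.529% at 100 or more (9 of 1702, exact Clopper-Pearson 95% interval 0.242 to 1.001%). The threshold itself cut through a slope. Junctions with exactly 10 stimulated reads were absent in 176 of 2303 cases (7.64%), and those with 9 reads, just outside the set, in 212 of 2621 (8.09%). The reverse set, with 10 or more mock reads and none in the stimulated library, held 948 of 29624 junctions (3.20%). In the mock library the absent share fell from 4.85% at 10 to 19 reads to 0.275% at 100 or more (3 of 1089). The intervals here and below cover counting error only, since reads copied from the same molecule are not independent and junctions of the same gene are not either.

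**Figure D1:**
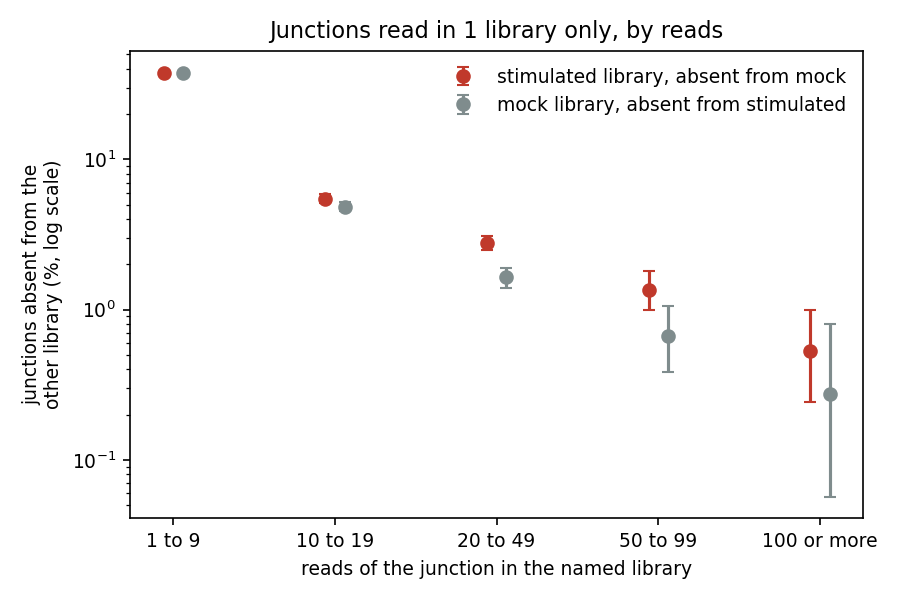
Share of junctions in percent (vertical axis) that were absent from the other library, by the number of reads in the library where they were seen (horizontal axis), with exact 95% intervals as bars. In both libraries the share falls with reads, from 37.8% to 0.529% in the stimulated library and to 0.275% in the mock library.

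The members were read 15 times at the median, against 21 for the shared junctions, and the highest had 1127 reads. After scaling to all junction reads, 10 stimulated reads were 2.85-fold above 3 mock reads, the nominal limit for a count of 0. At the median of the members this ratio was 4.28-fold. As the 0 chose the members, their mock level may be higher, so these ratios are not firm bounds. Sema7a, Hivep3 and Lcp2 each had more than 1 member among the most read. Slc29a1, a transporter that takes up nucleosides, had 83 reads on intron 9 of 12, beside 46 mock and 715 stimulated reads on its other junctions.

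Most members were ordinary introns of known genes. By structure, that is by intron length and exact distance to a neighbouring junction of the same transcript, 1050 of 1169 (89.8%) equalled an annotated intron, against 28944 of 29599 shared junctions (97.8%). A further 55 were named through a shared end, 9 lay inside a single gene, and 55 had no name. Of the 1114 named members 1111 lay in protein-coding genes.

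Where the annotated introns lay within their transcripts differed from the shared junctions. The intron was the first in every transcript that holds it for 144 of 1050 members (13.7%, 11.7 to 15.9%) and for 1832 of 28937 shared junctions (6.33%). The share was also higher among members with 10 to 19 reads (13.3% against 6.19%) and with 20 to 49 (14.4% against 6.05%). At 50 or more reads it was 15.1% (8 of 53, 6.75 to 27.6%) against 7.33%, which lies within that interval. Among members in genes with 100 or more mock reads on other junctions it was 9.45% (31 of 328), and among those in genes with fewer than 10 such reads 16.7% (31 of 186). Last introns made up 8% of members and 9.71% of shared junctions. Both flanks were coding for 92.2% of members and 95.7% of shared junctions.

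Intron lengths were close to those of the shared junctions in the middle of the range and differed at its ends. The median was 1138 bp for members and 1025 bp for shared junctions, with quartiles of 376 and 2637 bp against 338 and 2439 bp. Introns under 100 bp were 58 members (4.96%) against 7.68%, those from 100 bp to under 1000 bp 488 (41.7%) against 41.6%, and those from there to under 10000 bp 538 (46.0%) against 46.0%. Introns from 10000 bp to under 50000 bp were 73 (6.24%) against 4.16%, and those of 50000 bp or more were 12 (1.03%) against 0.551%. The most-read short members were in Actb (246 reads, 95 bp), Eif5a (100 reads, 95 bp), whose product is a translation factor, and Gadd45b (78 reads, 88 bp), a stress-response gene. The most-read members from 10000 bp to under 50000 bp were in Sema7a (65 reads, 13207 bp) and Gramd1b (56 reads, 20833 bp), which encodes a sterol transfer protein, and in Hivep3 (50 reads, 19017 bp).

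The 12 longest members mixed introns of known genes with joins across gene clusters. Adk (10 reads, 50887 bp, intron 7 of 10), Spata5 (11 reads, 63499 bp, intron 14 of 15) and 3110082I17Rik (15 reads, intron 2 of 4) equalled annotated introns. Srp54a, Ly6c2 and Phf10 were named through a shared end only, and 6 had no gene name. A 51167 bp junction at chr15:74828048-74879214 on the minus strand (43 reads), whose acceptor end a Ly6a member also uses, joined sites in the Ly6 region, and one of 206454 bp at chr5:105549021-105755474 (18 reads) lay near Gbp6. Genes in these clusters are near-identical copies, so the placement of these reads is uncertain. The same holds for Ermard and Gm3435 on chromosome 17, whose first introns had the same length, 601 bp, and 25 reads each.

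By gene, the members spread over 677 of the 5115 genes with a junction of 10 or more stimulated reads (13.2%). A single member was found in 471 genes, 2 in 119, 3 or 4 in 55, and 5 or more in 32 genes, which held 221 members. Utp20 had the most, 17. For 62 genes every junction with 10 or more stimulated reads was a member, and 18 of these had at least 2: Il12rb1, Frmd4b, Il2, Timm17a, Pla2g12a, Serpina3f, Cdkn1a, Chac1, Calm3, Cxcl9, Egr2, 3110082I17Rik, Pop1, Tnfsf14, Slc1a4, Akr1c18, Wdr4 and Thop1.

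The genes with the most members included 2 with hardly any mock reads anywhere. Shmt1, the cytosolic enzyme that moves a one-carbon unit from serine to folate, had 10 members with 18 to 58 stimulated reads. Its 12 junctions in the order of transcription had 18, 52, 41, 58, 53, 57, 1, 50, 19, 55, 55 and 44 stimulated reads, and the last was the only one read in the mock library, 2 times. The members were 91.1% of the stimulated reads of Shmt1. Sema7a, a semaphorin anchored to the cell surface, had 9 members with 29 to 115 stimulated reads. Its other junctions had 9 mock and 710 stimulated reads, and the mock reads lay on 4 of them. Hivep3, a large zinc finger protein that binds kB-like sites, had 6 members with 37, 50, 32, 75, 84 and 148 stimulated reads from 5′ to 3′. Its only junction with a mock read had 1 mock and 94 stimulated reads. The member of 32 reads in Hivep3 shares its donor with the one of 50 reads and its acceptor with the one of 75, and so skips the exon between them.

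The other genes with many members were genes with many introns, and 4 of the 8 are in the list of ribosome biogenesis genes used below: Utp20, Heatr1, Rrp12 and Rrp1b. Utp20, a large protein of the small-subunit processome, had 17 members of 10 to 33 reads among junctions whose others had 48 mock and 584 stimulated reads in sum. Heatr1, of the same machinery, had 11 members with 231 reads in sum beside 133 mock and 944 stimulated reads on its other junctions. Cad, which carries out the first steps of pyrimidine synthesis, had 10 members with 167 reads, beside 59 and 418 on the others. Along Utp20, Heatr1 and Cad the members lay singly or in short runs among the other introns, and no single run held all of them. Ipo4, an importin, had 9 members (294 reads, with 87 mock and 989 stimulated reads on the others), Mdn1, an ATPase of large-subunit maturation, 9 (192 reads, 453 and 3232), and Rrp12, a ribosome export and processing factor, 9 (190 reads, 49 and 550). Pwp2 had 7 (196 reads, 25 and 344) and Rrp1b 7 (168 reads, 32 and 308), both nucleolar proteins. All 7 members of Rrp1b lay among introns 1 to 8 of 15.

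**Figure D2:**
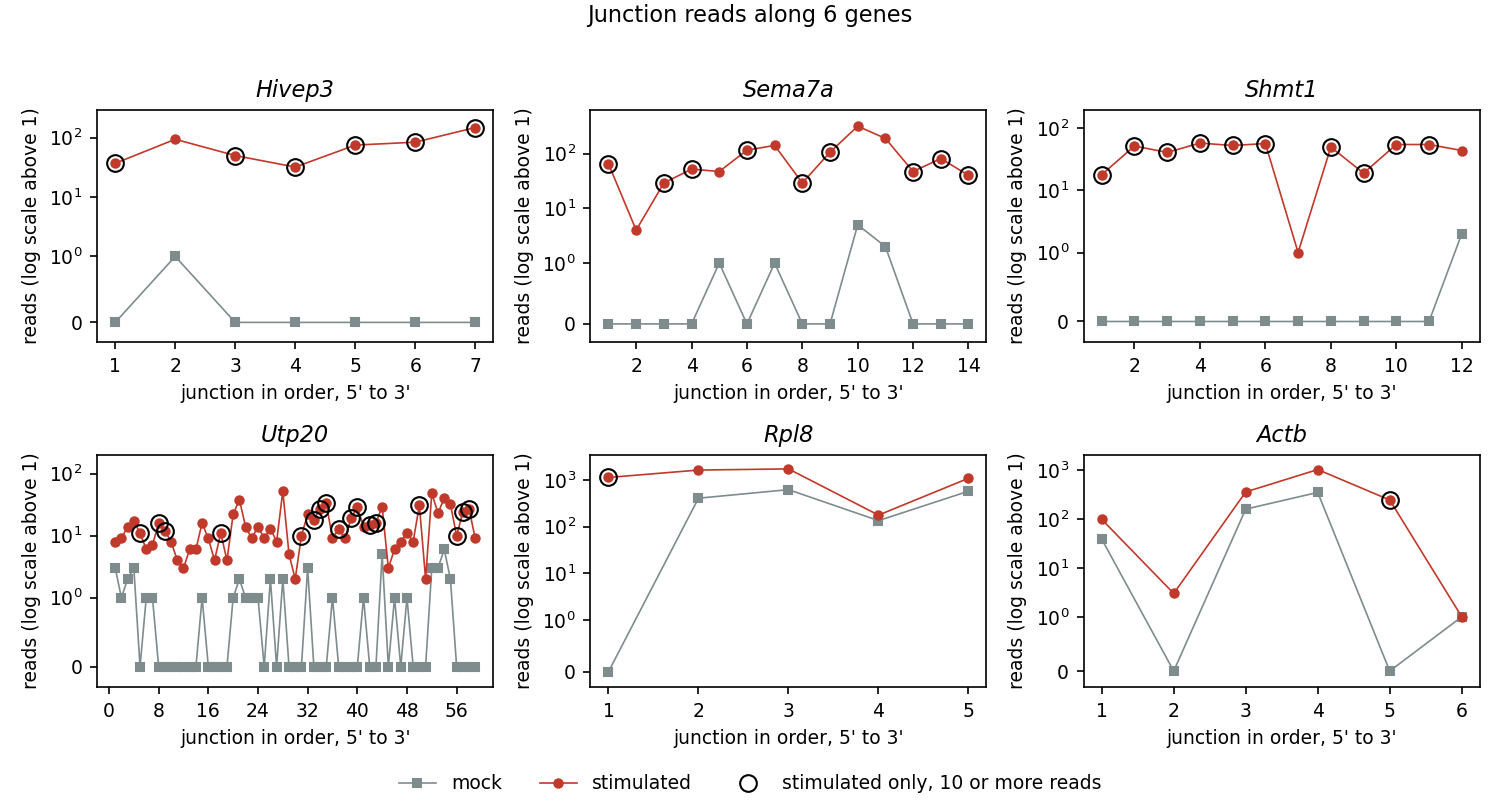
Reads per junction (vertical axis) along 6 genes in the order of transcription (horizontal axis, junction number from the 5′ end) for the mock and stimulated libraries, with members marked. Members are spread along Hivep3, Sema7a, Shmt1 and Utp20, while Rpl8 and Actb have a single member each among junctions that both libraries read.

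The lists of genes chosen for T cell activation differed in how many held a member. They are read beside the 3.80% of junctions and 13.2% of genes over all, with a median of 15 reads per member, and nothing more is drawn from the gap since the same contrast chose the members. Of the 12 cytokine genes with a junction of 10 or more stimulated reads 7 held a member (9 of 37 junctions, 24.3%, median 15 reads). Il2, the growth factor of T cells, had 22, 9 and 61 stimulated reads and 0 mock reads on its 3 annotated introns, of which 2 reached 10. Tnf had a member of 23 reads between junctions with 4 mock and 48 stimulated and with 3 mock and 172 stimulated reads. Ifng and Lif had a member of 10 reads each, Fasl one of 12 and Lta one of 15. Among chemokines 4 of 5 genes held a member (5 of 11 junctions, 45.5%, median 17). Cxcl9 had members of 17 and 22 reads and Cxcl10 one of 22, both encoding chemokines that attract T cells with the receptor CXCR3.

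Immediate early genes, which respond to a signal without new protein, held members in 8 of 19 genes (20 of 75 junctions, 26.7%, median 23.5). The Nr4a genes encode orphan nuclear receptors that rise quickly after T cell receptor signals. Nr4a2 had members of 94, 70, 31 and 30 reads, among junctions with up to 7 mock and 287 stimulated reads. Nr4a1 had 7 members of 10 to 33 reads, fewer than its main introns, which had up to 20 mock and 559 stimulated reads. Egr2 had members of 10 and 23 reads and another junction of 3, all with 0 mock reads. Activation surface proteins had members in 6 of 20 genes (13 of 122 junctions, 10.7%, median 23). Slc7a5, a transporter of large neutral amino acids, had members of 111, 73 and 45 reads beside introns with up to 25 mock and 583 stimulated reads. Tfrc, the transferrin receptor that brings in iron, had 4 of 19 to 61 reads.

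Ribosome biogenesis gave the most members of any list, 112 of 592 junctions (18.9%, median 18) in 29 of 42 genes. Besides those above, Mybbp1a had a member of 81 reads, Nop56, a core protein of small nucleolar RNPs, one of 71, and Nop14 one of 54. One-carbon and nucleotide synthesis had members in 11 of 20 genes (40 of 192 junctions, 20.8%, median 18), Shmt1 and Cad first, and Ctps, which makes CTP, with 37, 16 and 15 reads. The tRNA synthetases and initiation factors had members in 12 of 31 genes (20 of 464 junctions, 4.31%, median 19), with Eif5a at 100 reads, Gars at 49 and Mars at 36. NF-kB pathway genes had members in 9 of 24 (15 of 210 junctions, 7.14%, median 17), with Nfkbid, a nuclear IkB protein, at 39 reads and Malt1, the paracaspase of antigen receptor signalling, at 28.

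The other lists had few members or none. Helper lineage transcription factors had members in 3 of 21 genes (8 of 209 junctions, 3.83%, median 28): Irf8 with 92, 64, 20 and 11 reads, Irf4 with 48 and 15, and Tbx21, the T-bet gene, with 36 and 13. T cell receptor signalling had members in 4 of 33 genes (6 of 331 junctions, 1.81%, median 17.5), and splicing factors in 4 of 47 (4 of 394, 1.02%, median 20). No member lay in the 15 calcium and NFAT genes (68 junctions) or in the 14 genes of naive and quiescent T cells (83 junctions). The B cell list had 3 genes with 4 such junctions and no member, with 220 mock and 189 stimulated reads in sum. The CD8 and natural killer list had 2 such junctions and no member, and the myeloid and dendritic list had no junction of 10 stimulated reads.

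**Figure D3:**
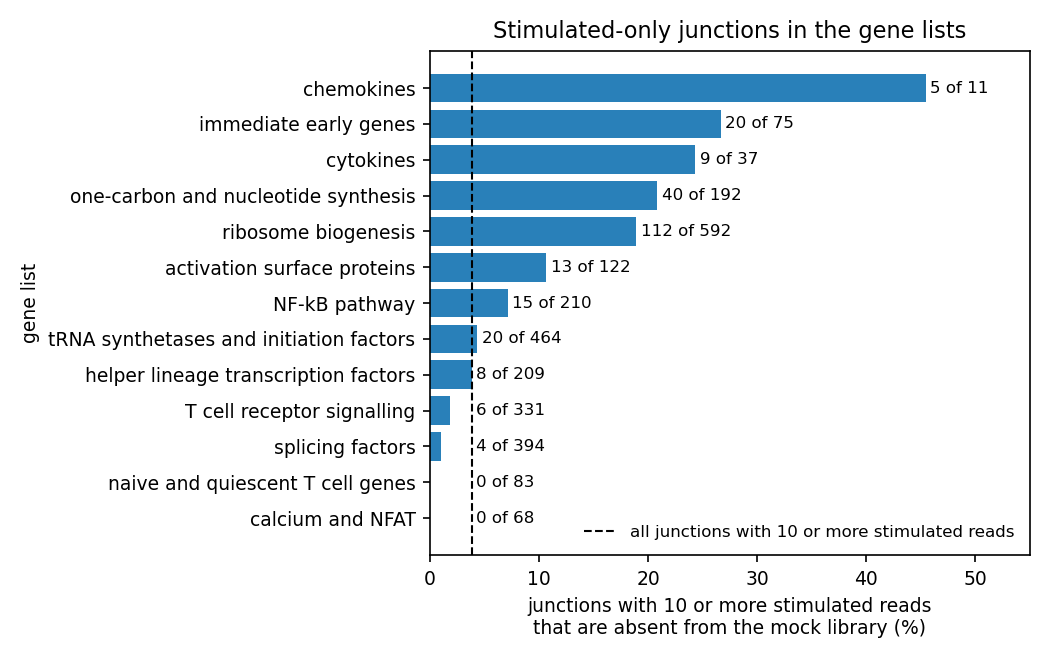
Share of junctions with 10 or more stimulated reads that were members, in percent (horizontal axis), for each gene list (vertical axis), with the number of members and of such junctions beside each bar; the dashed line is the 3.80% over all junctions. Chemokines (45.5%), immediate early genes (26.7%) and cytokines (24.3%) have the longest bars, and the lists of calcium and NFAT genes and of naive and quiescent T cell genes have none; marker lists of other cell types are not drawn.

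How much the gene was read in the mock library separated the members further. Of the 1114 named members 37, in 25 genes, lay in genes with 0 mock reads on their other junctions. A further 156 lay in genes with 1 to 9 such reads, 560 in genes with 10 to 99, and 361 in genes with 100 or more. The shared junctions were not divided in this way. A mock count at the gene ratio was formed from the stimulated reads of the member and the gene's junctions that are not members. It is the member's stimulated reads times the ratio of mock to stimulated reads on those junctions. In genes with several members it is raised, because the other members, with 0 mock reads, are left out of the ratio. That number could be computed for 1112 members, and its median was 3.37 reads. It was under 3 for 499 members (44.9%), from 3 to under 10 for 451, from 10 to under 20 for 123, and 20 or more for 39. For the 162 members with 10 or more, in 152 genes, the mock library had 0 reads at exactly those ends while the rest of the gene was read. Their median intron was 1286.5 bp, against 937 bp for the 499 under 3. Of the 162, 9 (5.56%) had a mock junction within 5 bp at both ends, as did 10 of the 499 (2.00%). Some ratios rest on few reads, such as that of Rpsa, with 3 mock and 1 stimulated read on its other junctions.

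**Figure D4:**
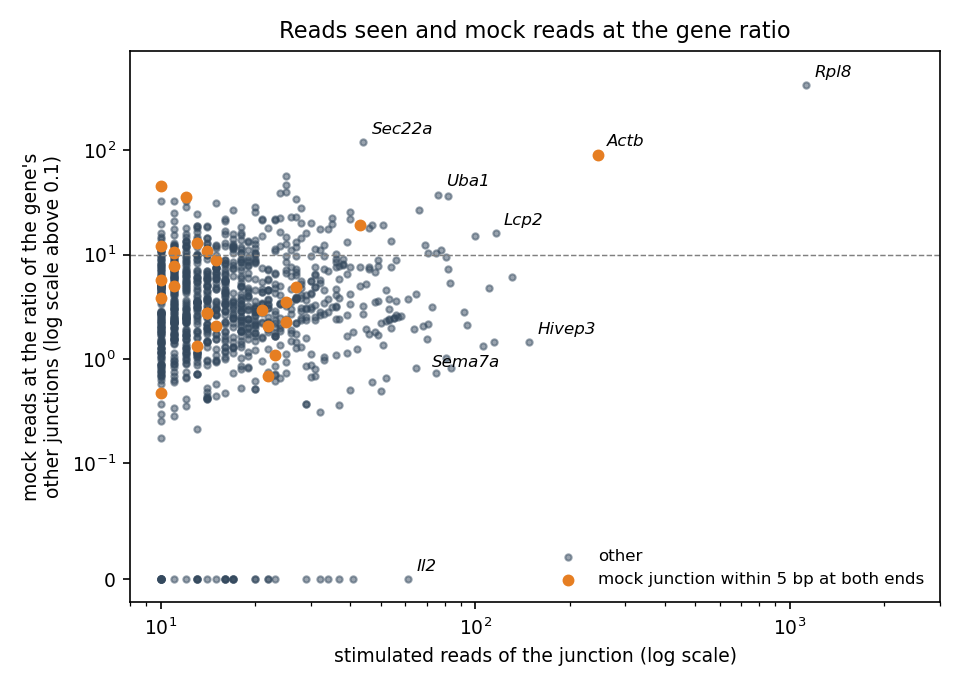
Stimulated reads of each of 1112 named members (horizontal axis, log scale) and the mock reads the junction would have at its gene's ratio (vertical axis, log scale above 0.1), with the dashed line at 10 and members that have a mock junction within 5 bp at both ends in orange. Rpl8 (1127 reads, 424 at the gene ratio), Actb (246 and 90.7) and Sec22a (44 and 119) lie highest, while Hivep3, Sema7a and Il2 lie under 3.

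Rpl8, a protein of the large ribosomal subunit, held the member with the most reads. Its first intron, chr15:76734540-76734732 on the plus strand, 193 bp, had 0 mock and 1127 stimulated reads. Scaled to all junction reads, the stimulated count was 321-fold above the nominal limit for a count of 0. As the 0 chose this junction, its mock level may be higher, so that ratio is not a firm bound. The other 4 introns of Rpl8 had 405, 618, 134 and 572 mock reads and 1624, 1719, 176 and 1083 stimulated reads. At the ratio of those introns, the first would have had 424 mock reads. On its upstream side the longest stretch of aligned bases was 34, against 82 downstream.

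Several other members stood alone in genes that both libraries read, and they were named for that after their values were seen, except where they were among the 20 most read. Uba1, the main ubiquitin-activating enzyme, had 0 mock and 76 stimulated reads on intron 24 of 25, and its neighbours had 33 and 56 mock reads. The rest of Uba1 had 1137 mock and 2304 stimulated reads, which would give 37.5 mock reads. Ccdc124 had 82 stimulated reads on intron 1 of 4, where the next had 31 mock and 69 stimulated reads. Sec22a, of a family of vesicle transport proteins, had 44 stimulated reads on intron 1 of 6, while its other 6 junctions had 19 mock and 7 stimulated reads in sum. So the first intron of Sec22a was read more than all its other junctions together in the stimulated library and was not listed in the mock library. On its upstream side the longest stretch of aligned bases was only 20, and the gene ratio of Sec22a rests on those 7 stimulated reads. Clk4, a kinase of splicing factors, had 28 on intron 8 of 12, with 34 and 15 mock reads on its neighbours. Gclm, a subunit of the enzyme that begins glutathione synthesis, had 25 on intron 5 of 6 (neighbours 8 and 26), and Kansl3, a subunit of a histone acetyltransferase complex, had 27 on intron 7 of 20 (neighbours 7 and 39).

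In Lcp2, the SLP-76 adaptor of T cell receptor signalling, the members were a pair of adjoining introns, 14 and 15 of 20. They had 75 and 116 stimulated reads and 0 mock reads. The intron before them had 43 mock and 446 stimulated reads and the one after them 11 and 77. The first ends at position 33981719 of chromosome 11 and the second starts at 33981733, so the exon between them is only a few bases long, and both joins of that exon were listed in the stimulated library alone. Among the 822 annotated members with a neighbour on each side, both neighbours were read in the mock library for 428 (52.1%), 1 of them for 265 and neither for 129. Both had 10 or more mock reads for 49. Neighbours were not counted in this way for the shared junctions.

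A small set of members lay beside a junction of the mock library instead of away from any. For 36 members (3.08%) a mock junction had both ends within 5 bp of theirs, on the same strand for 18 and on the other strand for 18. The like share was not computed for the shared junctions, so whether 3.08% is high or low for these libraries is not known. None had a mock junction at exactly its own ends on the other strand. All 18 on the other strand were moved by the same distance at both ends, so the intron length was equal. In 12 of the 18 a minus-strand member had a plus-strand mock junction 4 bp lower. The cytoskeletal actin gene Actb was the most read. Its member, intron 4 of 5 at chr5:143665928-143666022 on the minus strand, had 0 mock and 246 stimulated reads. The plus-strand junction at chr5:143665924-143666018 had 162 mock and 121 stimulated reads. Of this pair of junctions beside Actb, the stimulated library listed both and the mock library only the one on the plus strand. Chd4, a chromatin remodeller, had a plus-strand member of 43 reads beside a minus-strand junction 2 bp lower with 36 mock and 30 stimulated reads.

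The members that lay 4 bp above a plus-strand mock junction began their downstream exon alike, a comparison chosen after the values were seen. Of 7 such members with an annotated intron, 5 had a downstream exon that began GTAT: Actb, Arfgef1, Gapvd1, Arhgap17 and Rgcc. Over all annotated members GTAT began 16 of 1050 downstream exons (1.52%), and over the shared junctions 346 of 28937 (1.20%; minus strand alone 168 of 14148, 1.19%). GTAT was read on the strand of the gene only, at the first 4 bases of the exon. The joins of 4 of these and of Slc38a2, whose downstream exon begins CTAT, are shown to let the bases be compared. Each line has 15 bases on each side of the join, with the first 4 of the downstream exon in capitals.
Actb (chr5:143665928-143666022, minus strand): agccttccttcttggGTATggaatcctgtg
Arfgef1 (chr1:10179760-10184337, minus strand): aagatgcaaattgagGTATtctttaaagaa
Gapvd1 (chr2:34561660-34562217, minus strand): tcagtgttgtgtccgGTATaagtgctacat
Arhgap17 (chr7:130444117-130447209, minus strand): ttttgttaactttagGTATttaatcaagtt
Slc38a2 (chr15:96525526-96525646, minus strand): tgcagaacattggggCTATgtcaagctacc

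The reads beside these joins were few outside Actb. Arfgef1 had 13 stimulated reads against 5 mock and 11 stimulated on the plus strand, Gapvd1 14 against 5 and 14, Arhgap17 11 against 15 and 11, Slc38a2 15 against 13 and 14, and Rgcc 27 against 6 and 6. In each, the stimulated library listed a junction on both strands and the mock library on the plus strand only. Whether the junctions of a pair come from the same join was not tested.

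Splice sites were used in common with other junctions about as often as among the shared junctions. Neither end was that of any junction listed in both libraries for 1055 members (90.2%, against 89.9% of the shared junctions, each judged by the others), the donor only for 45 (3.85% against 4.28%), the acceptor only for 51 (4.36% against 4.23%), and both ends for 18 (1.54% against 1.55%). The classes differed in how well they matched the annotation. Annotated introns were 93.6% of the members with neither end shared, 29 of 45 (64.4%) with the donor shared, 22 of 51 (43.1%) with the acceptor shared, and 11 of 18 (61.1%) with both. The end that was not shared was compared with the nearest end joined to the same site in both libraries, without regard to annotation. It lay within 10 bp of that end for 3 members with a shared donor and 9 with a shared acceptor. It was more than 1000 bp away for 20 and 17.

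Among members with a shared donor, the most read joined that donor to an acceptor of no junction listed in both libraries. Tm9sf4, a membrane protein of the endosome, had 66 stimulated reads on its intron 2 of 17 (donor site 1 mock and 67 stimulated reads), between introns with 14 mock and 45 stimulated and with 11 mock and 33 stimulated reads. Ctps had 37 reads on intron 3 of 18, from a donor with 1 mock and 39 stimulated reads. Vsir, the inhibitory receptor VISTA, had 36, named through the shared donor. Nr4a2 had 31, Hnrnpd, an RNA-binding protein, 28, Gbp6 27 and Malt1 23, the Gbp6 reads being uncertain because of its near-identical copies.

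Among members with a shared acceptor, the most read joined another donor to an acceptor that both libraries used. In Gramd1b, members of 56 and 28 reads ended at the same acceptor, position 40220960 on chromosome 9, and came from donors 20833 and 21712 bp away. That acceptor had 5 mock and 202 stimulated reads in all. A further member of Gramd1b, of 27 reads and 800 bp, joined the far donor to the exon that ends at the near one. None of these 3 equalled an annotated intron. In Nr4a1, members of 33, 25, 18 and 10 reads ended at position 101100513 of chromosome 15, where 11 mock and 595 stimulated reads ended in all. Nr4a3 had 33 of 688 stimulated reads at such an acceptor, which had 15 mock reads. The first introns of Atp5g1 (30 reads, acceptor 3 mock and 47 stimulated), Slc38a1, an amino acid transporter (30 reads, acceptor 2 and 35), and Wdr46 (28 reads, acceptor 2 and 29) equalled annotated introns. Their donors lay 70, 363 and 47 bp from the nearest ones joined to the same acceptors in both libraries. These introns took 63.8, 85.7 and 96.6% of the stimulated reads at those acceptors.

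Of the members with both ends shared, Irf4, a transcription factor of activated lymphocytes, had the most reads. Its member chr13:30849631-30855395 on the plus strand, 5765 bp, had 48 stimulated reads from a donor with 9 mock and 220 stimulated reads. It passes over an exon whose 2 junctions had 9 mock and 171 stimulated, and 6 mock and 202 stimulated reads. A second member of Irf4, of 15 reads, passes over another exon upstream. Mogs had 21, Zcchc7 20, and Rnf149, Srrm2 and Aen 17 each. At low site counts a mock count of 0 sets little limit. The donor of Irf4 with its 9 mock reads allows up to 33.3% use, while the member took 21.8% of it in the stimulated library.

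The share of reads at a splice site does not depend on library size or on the level of the gene, so it was read where the site had at least 20 reads in each library. This held for 22 of the 114 members with a shared end. The other 92 sites had 4 mock reads at the median. The member took 13.2% of the stimulated reads of its site at the median, from 2.69 to 59.1%. For 10 of the 22 the lower 95% limit lay above the share at the nominal limit of 3 mock reads. Below, that share is given as what 0 mock reads allow. As the absence from the mock library chose these junctions, this is a description of the depth and not a test.

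The highest use was in Atxn2l and Zmat5. Atxn2l, an RNA-binding relative of ataxin-2, had 35 of 63 stimulated reads at the acceptor (55.6%, 42.5 to 68.1%) and 0 of 21 mock reads, which allows up to 14.3%. The member, chr7:133644973-133645466 on the minus strand, is the first of 6 introns in its annotated transcript and uses a donor 343 bp from the nearest one joined to that acceptor in both libraries. Zmat5, a protein of the U11/U12 particle of the minor spliceosome, had 13 of 22 (59.1%, 36.4 to 79.3%) and 0 of 21 mock reads. Its donor lay 9 bp from the nearest one joined to the same acceptor in both libraries. Mef2d, a transcription factor, had 12 of 35 (34.3%) and 0 of 24 mock reads, Ranbp3, a cofactor of nuclear export, 10 of 31 (32.3%) and 0 of 24, and Srrm2, a scaffold protein of nuclear speckles, 17 of 65 (26.2%) and 0 of 44. In Srrm2 another junction at the same acceptor had 44 mock and 48 stimulated reads.

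**Figure D5:**
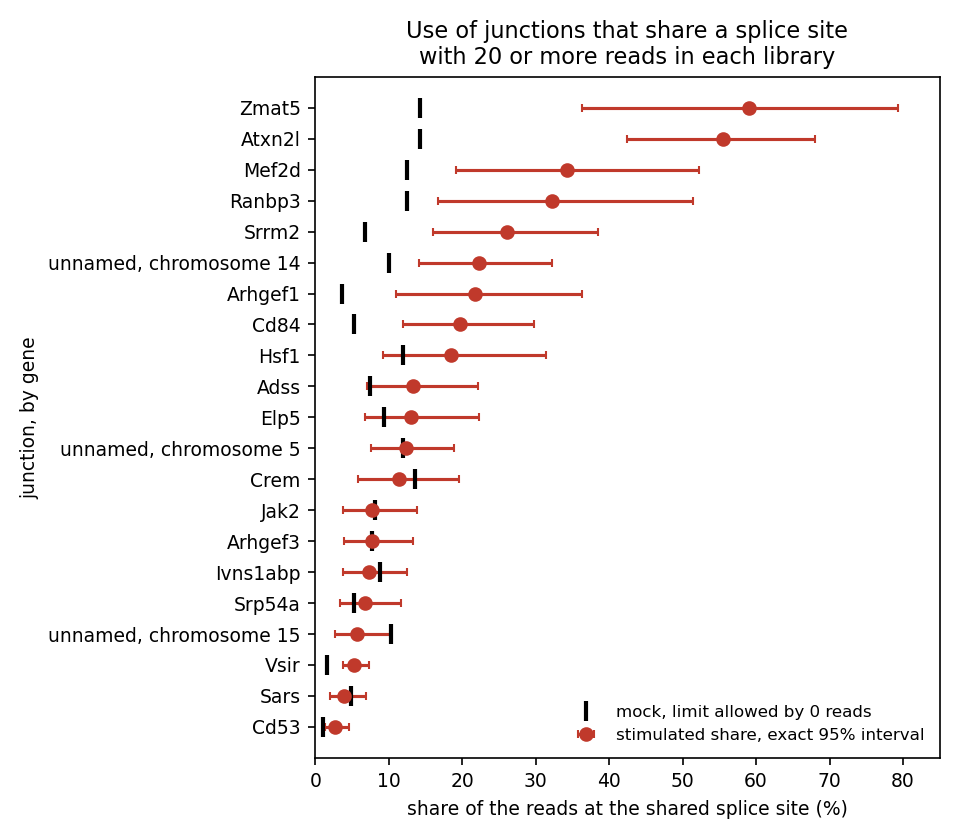
Share of the reads at a shared splice site taken by the member in the stimulated library, in percent with exact 95% intervals (filled points and bars), and the largest share that 0 mock reads allow (black ticks), for 21 of the 22 members whose site had 20 or more reads in each library, the other being among the results not reported here. Atxn2l (55.6%, mock limit 14.3%) and Zmat5 (59.1%, 14.3%) lie highest, and Cd53 (2.69%, 1.08%) lowest.

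Sites with more reads held members of lower use, which follows in part from the rule. With at least 10 reads, a member can have a low share only at a well-read site. Cd84, a SLAM family receptor, had 17 of 86 (19.8%, 11.96 to 29.75%) and 0 of 57 mock reads. Vsir had 36 of 676 (5.33%, 3.76 to 7.30%) and 0 of 194, which allows 1.55%. Its acceptor lay 203 bp from the nearest one joined to the same donor in both libraries. Cd53, a tetraspanin of leukocytes, had 12 of 446 (2.69%) and 0 of 278, which allows 1.08%. Jak2, a cytokine receptor kinase, had 10 of 129 (7.75%, 3.78 to 13.8%) and 0 of 37, which allows 8.11%, so its interval and its limit overlap. Arhgef1 had 10 of 46 (21.7%) and 0 of 83, and its reads reached only 8 bases into the upstream exon. Such a short reach was rare: on 1 side it was under 20 bp for 12 members (1.03%) and for 27 shared junctions (0.0912%), and the median of the shorter side was 68 bp against 69 bp.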

How the data were processed

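RNA of mouse CD4+ T cells was sequenced in 1 library per group, mock and stimulated. Per the submitters' processing notes, TopHat, Cufflinks and the mm9 build were used. Their versions, settings and junction filters were not given in the sources used here. The scores deposited by the authors are counts of reads spanning each junction, and they were used without normalization. Reads that were dropped or placed elsewhere change a count, and whether the library was stranded is not stated. Introns were read from the BED blocks and are given in mm9, from 1.

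Genes were named with GENCODE M21 (GRCm38) by structure, with no coordinates converted: same chromosome, strand and intron length, and an exact distance to another junction of the same transcript. This named 95518 of 124183 junctions (76.9%), and 238 fitted several genes. Remaining junctions took the gene of a shared end or of an enclosing gene. The naming and the selection were run on simulated junctions copied from annotated introns, with absences planted. Unannotated junctions, misplaced reads and low counts were not simulated, so this checks the code only. Exons and coding flanks came from the same release.

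With 1 library per group no p-value was computed. Shares have exact Clopper-Pearson 95% intervals, and a count of 0 was given the limit of 3 reads, or 2.61 per 1000000 mock junction reads. Fold values against this nominal limit were scaled to all junction reads. The genes named were the 20 most-read members, the 8 most read in each end class, the 3 most read in each length class, the 10 genes with most members, the 15 with the highest lower limit of site use (sites of 20 or more reads), the 3 most read of each list, and the 5 most read near a mock junction. The others were chosen after values were seen. Some of these are not reported here. Members and lists were chosen with earlier results of these data known. Other score minimums, definitions of absence, end classes and site minimums were tried. Python 3.11.15, pandas 2.3.3, numpy 2.4.6 and scipy 1.17.1 were used.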

Additional observations from a re-analysis of the deposited data

How the results depend on the processing

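The number of members follows the score minimum: 3278 at 5 reads, 360 at 20 and 54 at 50, in place of 1169. Other definitions of absence gave 1133 to 1169, 1133 being without the members that have a mock junction within 5 bp at both ends on either strand, a setting added after seeing the data. Where an end counted as shared with any mock junction, 87.1% had neither end shared and 5.13% the donor. Where that junction needed 10 or more reads in each library, the shares were 97.3% for neither, 1.03% for the donor, 1.37% for the acceptor and 0.342% for both. The median intron length was 1340.5 bp at a score of 5, 1000 bp at 20 and 1332 bp for the most-read member of each gene. Median site use was 5.33% over the 5 members whose site had 50 reads in each library, and 16.9% over 44 at 10 reads. The minimum of 10 reads for a member is a smaller share of a deeper site. The annotated share was 86.4% at a score of 5, 91.7% at 20 and 91.6% without the members near a mock junction. Of 33 alternative values 17 stayed within the interval of the reported one or within 1.5 times the count. The causes of the others were not tested. No paired analysis was possible because each group has 1 library. A junction with 0 mock reads may still have a level of 3 reads, or more since the 0 chose it. Members just over 10 reads are therefore limited by depth.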

Other observations

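The members were spread unevenly over chromosomes. Their share of the junctions with 10 or more stimulated reads ran from 1.502% on chromosome X (14 of 932) to 5.38% on chromosome 4 (105 of 1950).

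Bcat1, Cdkn1a, Chac1 and Slamf7 also held several members. Bcat1, the cytosolic enzyme that removes the amino group of branched-chain amino acids, had 6 members, of 68, 14, 23, 14, 71 and 36 stimulated reads, while its other introns had at most 2 mock reads each. Cdkn1a, an inhibitor of cyclin-dependent kinases, had members of 16 and 33 reads, and Chac1, which breaks down glutathione, of 16 and 29, and neither gene had a mock read on any junction. Slamf7, a SLAM family receptor, had members of 25, 30, 14, 46 and 23 reads beside introns with 1 mock and 34 stimulated and with 3 mock and 59 stimulated reads. These genes were chosen after their values were seen.

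Some members without a gene name had many reads in the mock library close by. The minus-strand member chr7:82881358-82881497 had 26 stimulated reads, and a plus-strand junction 4 bp lower had 73 mock and 21 stimulated reads. The member chr11:83152935-83154779 had 20, and the plus-strand junction 4 bp lower had 26 mock and 17 stimulated reads.

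In Il2ra, the high-affinity chain of the IL-2 receptor, both members were unannotated. The member of 23 reads lay 4 bp above a junction on the same strand with 7 mock and 102 stimulated reads, and the member of 18 reads shared its acceptor with junctions that had 7 mock and 179 stimulated reads in all.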
